A study of Mus musculus with 13 samples.

Results

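Osm and Lif are neighbouring cytokine genes on mouse chromosome 11, and the binding of STAT5A, LSD1 and HDAC3 around them is described here in Ba/F3 cells without and with interleukin 3 (IL3). The locus was taken as every position within 100 kb of the bounds of either gene on the mm10 assembly, chr11:4136785-4372514, a stretch of 235.7 kb. It held 124 of the 121823 regions in the 18 deposited lists, and these merged into 32 sites where regions overlapped by 1 bp or more. Ba/F3 cells are a line of mouse pro-B cells that need IL3 to grow, and all cultures had been kept in 1 ng/mL IL3 and then starved of it for 6 h. Cells without IL3 were collected at that point, and cells with IL3 were first given 10 ng/mL for 30 min. Chromatin immunoprecipitation with sequencing was done with antibodies to STAT5A, LSD1 and HDAC3, with 2 biological replicates for each protein and condition. The authors called regions in each of the 12 libraries and again in 6 pooled libraries, 1 per group. No genetic change separates the groups, and all libraries come from this 1 cell line.

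Oncostatin M (Osm) and leukaemia inhibitory factor (Lif) are secreted cytokines of the interleukin 6 family, and both signal through receptors that contain the shared chain gp130, encoded by Il6st. Lif is best known for keeping mouse embryonic stem cells undifferentiated, and Osm is made by blood cells and is known to be induced early by IL3 and related cytokines through STAT5. The IL3 receptor activates JAK kinases, which phosphorylate STAT5, and STAT5 dimers bind DNA at paired sites of the form TTCNNNGAA. LSD1, encoded by Kdm1a, removes methyl groups from histone H3 in CoREST complexes, and HDAC3 removes acetyl groups from histones in NCoR complexes.

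Osm lies at chr11:4236785-4241026 (4242 bp) and Lif at chr11:4257568-4272514 (14947 bp), with 16541 bp between them. The other protein-coding genes that reach into the locus are Rnf215, Ccdc157, Sf3a1 (a splicing factor subunit), Tbc1d10a (a regulator of Rab GTPases), Castor1 (an arginine sensor of the mTOR pathway) and Hormad2 (a protein of meiotic chromosomes), which makes 8 in all. Between Lif and Hormad2 lies the long noncoding RNA gene Gm11958, at chr11:4285468-4304148. The gene table used gives bounds without strand or exons, so sites are placed by their distance from the lower bound of Osm, negative below it and positive above it. Inside a gene means between its bounds, and exon, intron and UTR are not known here.

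The lists differed widely in length, which bears on every count below. For STAT5A, replicates 1 and 2 had 354 and 4513 regions in starved cells, and 13574 and 6288 after IL3. For LSD1 the lengths were 1007 and 15786, then 6479 and 11570 after IL3. For HDAC3 they were 1632 and 535, then 683 and 265 after IL3. No read totals come with the lists or labels used here, so a site absent from a list was not detected at that library's depth and is not shown to be unbound. If 1 step of the score is 1 read, LSD1 replicate 1 without IL3 was the shallowest library and the others had 2.68 to 8.83 times its depth. HDAC3 replicate 2 with IL3 was unlike the other libraries, since a single region of the genome made up 74.2% of its score sum.

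STAT5A with IL3 was called at many positions around Osm and Lif, and without IL3 at almost none. In the locus, replicates 1 and 2 held 0 and 1 STAT5A regions in starved cells, and 14 and 10 after IL3. Both libraries with IL3 thus lay above both without, and the groups did not overlap. With a window of 100 kb around each gene, 5493 of 21887 protein-coding genes met the same condition. The means were 0.5 ± 0.71 without and 12 ± 2.83 with IL3 (SD, n = 2 each). The difference was 11.5 regions. Its exact permutation p (two-sided) was 0.333, and 2 libraries against 2 cannot give a smaller one. Per 1000 regions of a list, the locus held 0 and 0.22 without and 1.03 and 1.59 with IL3. When each STAT5A list was reduced to its 354 highest-scoring regions, the locus kept 0 and 0 in starved cells against 3 and 2 after IL3, and the difference fell to 2.5 regions.

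**Figure D1:**
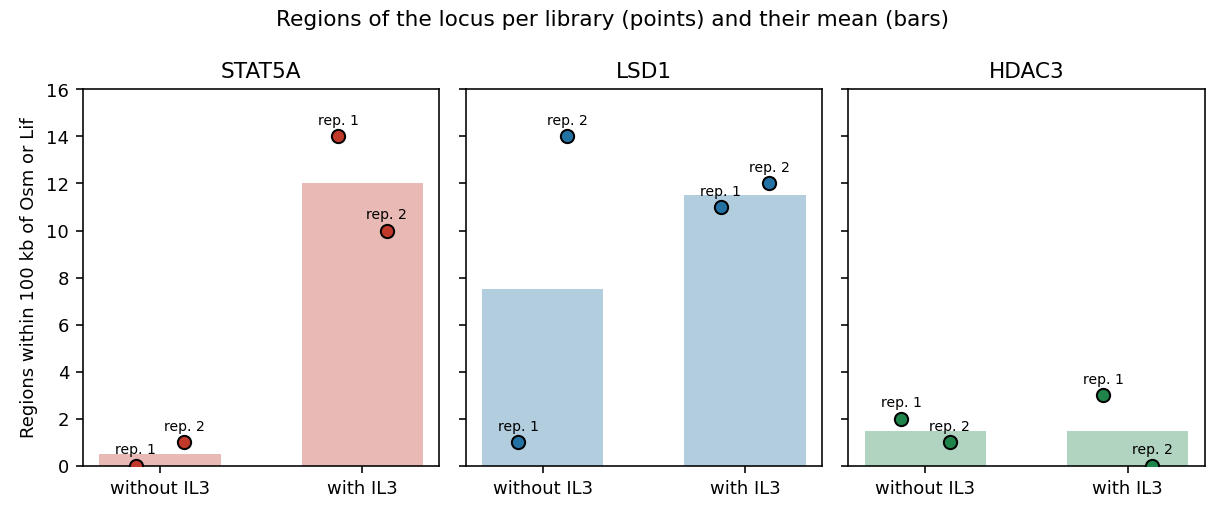
Number of called regions within 100 kb of Osm or Lif (vertical axis) for STAT5A, LSD1 and HDAC3 without and with IL3; each point is 1 library, labelled by replicate, and each bar is the mean of 2 libraries. STAT5A libraries sit at 0 and 1 without and at 14 and 10 with IL3, while the LSD1 and HDAC3 groups overlap.

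Close to Osm, each STAT5A library with IL3 held 4 regions within 10 kb of the gene, against 0 and 0 without IL3. These were not all the same sites. Both libraries had those at −4.0 kb, −0.9 kb and the lower bound of Osm. The site at −8.4 kb was in replicate 1 and not in replicate 2. The site at +12.6 kb was in replicate 2 alone, and it also counts for Lif. Only 59 of 21887 protein-coding genes, 0.27%, had 4 or more in both libraries with IL3. Cish, a feedback inhibitor of cytokine signalling and a standard STAT5 target, was also among them, with 4 and 4 against 1 and 1. Lif had 3 and 3 against 0 and 0, a level reached in both libraries by 207 genes (0.946%). Pim1, a survival kinase gene and another STAT5 target, had 4 and 3 against 0 and 1. Osm, Lif, Cish and Pim1 were all among the 1998 genes, 9.13% of those tested, whose counts in both libraries with IL3 exceeded both counts without. Osm, Cish and Pim1 stayed in this class with STAT5A lists of equal length, where 83 genes remained in it, and Lif did not.

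**Figure D2:**
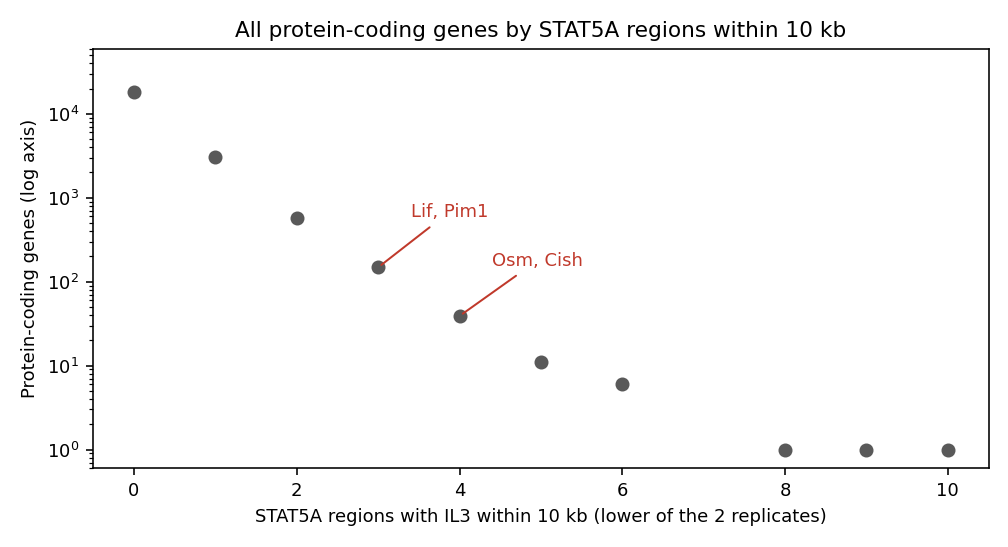
Number of protein-coding genes (vertical log axis) with a given number of STAT5A regions within 10 kb with IL3, taken as the lower of the replicates (horizontal axis). Osm and Cish sit at 4 and Lif and Pim1 at 3, where few genes remain.

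Over the wider window the counts were again high. Within 100 kb, Osm and Lif each had 14 and 10 STAT5A regions with IL3, and 27 genes (0.123%) had 10 or more in both libraries. These 27 genes lie on 6 chromosomes and share regions with their neighbours. Of them 4 are in the locus, namely Tbc1d10a, Castor1, Osm and Lif. Socs1, another feedback inhibitor, is among the others with a lower count of 12, while Cish had 7 and 8 and Pim1 had 17 and 9.

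Of the 17 merged STAT5A regions of the locus, 8 were called in both libraries with IL3 and in neither without, against 1811 of 20764 (8.72%) over the genome. None of the 17 was called in both libraries without IL3 and in neither with. That class held only 10 of 20764 over the genome. The count of 8 rests on what replicate 2 with IL3 missed, since without that library it was 14, and with lists of equal length it was 1. The 8 sites spanned the locus, with 4 between Castor1 and the lower bound of Osm, 1 inside Lif, 1 in Gm11958 and 2 between Gm11958 and Hormad2.

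**Figure D3:**
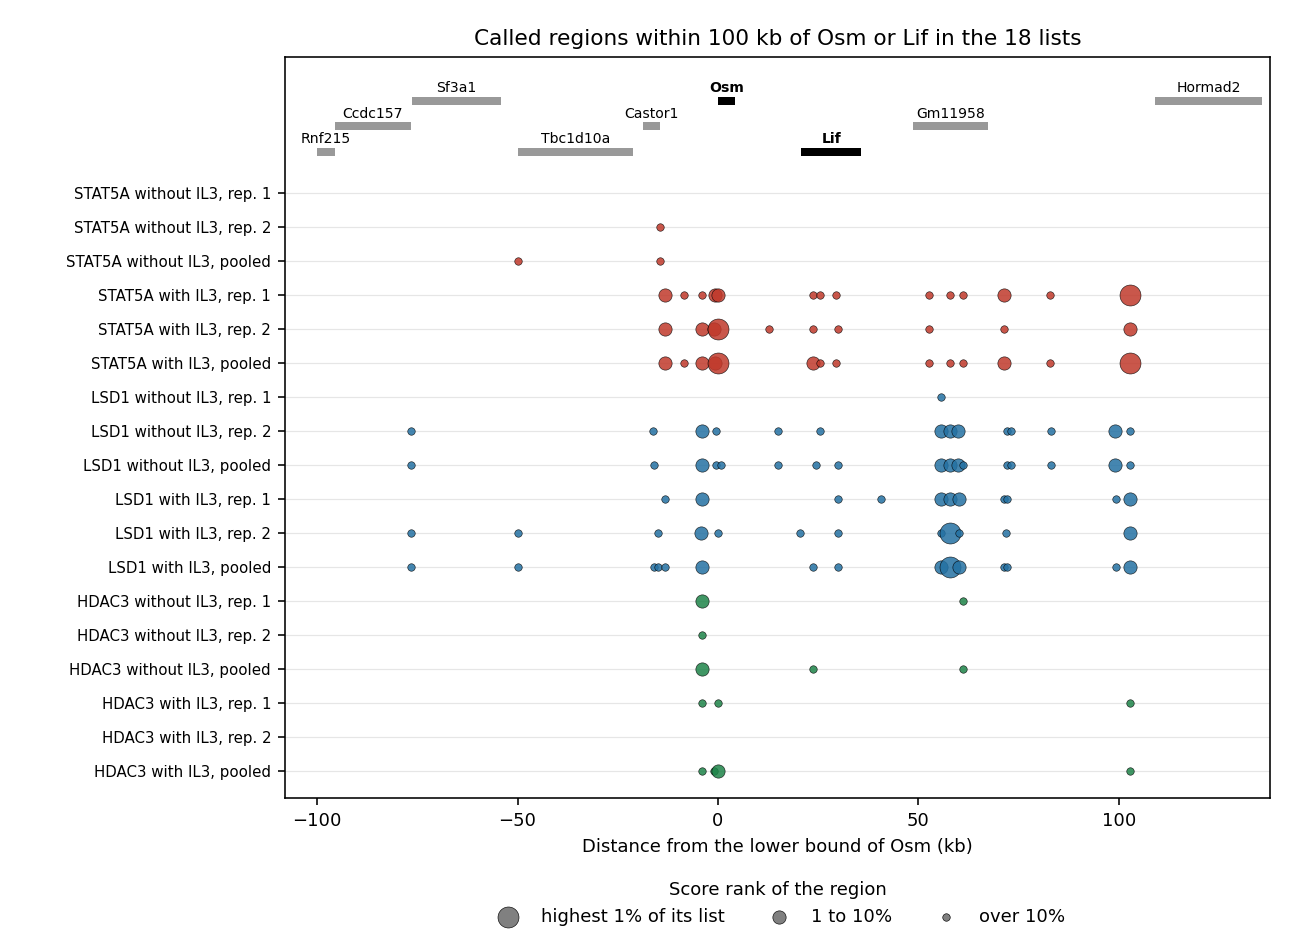
Map of the locus, with distance from the lower bound of Osm in kb on the horizontal axis, genes as bars on top, and 1 row for each of the 18 lists; each point is a called region and its size gives its score rank in that list. STAT5A rows fill with IL3 from Castor1 to Hormad2, and LSD1 rows are filled in both conditions except in replicate 1 without IL3.

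The highest STAT5A call beside a cytokine gene covered the lower bound of Osm, at chr11:4236649-4236823 in the pooled list with IL3. Each region carries a score that the authors deposited without a definition, which is used here only to rank regions within 1 list. That at the lower bound of Osm scored 399.0 in replicate 1 (rank 205 of 13574), 265.1 in replicate 2 (rank 20 of 6288) and 354.6 in the pooled list (rank 65 of 15546). It was thus within the highest 1.51% of each of these lists, and no list without IL3 had a STAT5A region there. A second region, at chr11:4235849-4236023, had its centre 800 bp away and scored 354.3 (rank 296), 75.0 (rank 476) and 237.1 (rank 283). Of all pooled STAT5A regions with IL3, 10.4% had the centre of another within 1 kb, so such a pair is not rare.

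Farther below Osm, the region at −13.2 kb lay 1214 bp above Castor1, at chr11:4223536-4223710. It scored 212.6 in replicate 1 (rank 847), 150.0 in replicate 2 (rank 112) and 185.9 in the pooled list (rank 523). The region at −4.0 kb, at chr11:4232684-4232858, scored 149.2 (rank 1390), 70.0 (rank 539) and 102.5 (rank 1334). Between them, a region at −8.4 kb was called in replicate 1 (97.0, rank 2346) and the pooled list, and not in replicate 2. The 4 sites called in both replicates below or at the bound of Osm all ranked within the highest 10.2% of each list with IL3.

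In Lif the STAT5A regions lay inside the gene and not at its lower bound, which is the start in the RefSeq promoter table. The 1 called in both replicates, at +23.8 kb and 3015 bp above that start (chr11:4260496-4260670), scored 126.8 (rank 1717), 65.0 (rank 641) and 100.4 (rank 1369). Regions at +25.3 kb (59.7, rank 3970) and +29.5 kb (100.7, rank 2249) were called in replicate 1 and the pooled list, and one at +30.0 kb (40.0, rank 2042) in replicate 2 alone. Replicate 2 alone also had a region at +12.6 kb, between Osm and Lif (30.0, rank 3985). The counts of 3 and 3 within 10 kb of Lif therefore share 1 site.

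The window just before the Lif start is shown because no STAT5A region of any list touched it and the 1 region that did was of LSD1. RefSeq's promoter table (GRCm38.p6, the same assembly as mm10) held Lif and did not hold Osm. The Lif bases are chr11:4257318-4257567 on the plus strand, 250 bases up to the start, with capitals for the 43 bases under an LSD1 region called in replicate 2 with IL3 (score 24.0, rank 5852 of 11570). The Tbc1d10a bases are chr11:4186583-4186832, also on the plus strand. They are shown because this promoter carried 1 of the 2 STAT5A regions found without IL3, and capitals mark the 106 bases under it.

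Lif: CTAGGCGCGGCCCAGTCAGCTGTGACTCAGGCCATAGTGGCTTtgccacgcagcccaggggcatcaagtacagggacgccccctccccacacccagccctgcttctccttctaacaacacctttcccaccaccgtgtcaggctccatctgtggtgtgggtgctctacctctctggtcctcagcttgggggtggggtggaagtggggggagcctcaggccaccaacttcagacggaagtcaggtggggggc
Tbc1d10a: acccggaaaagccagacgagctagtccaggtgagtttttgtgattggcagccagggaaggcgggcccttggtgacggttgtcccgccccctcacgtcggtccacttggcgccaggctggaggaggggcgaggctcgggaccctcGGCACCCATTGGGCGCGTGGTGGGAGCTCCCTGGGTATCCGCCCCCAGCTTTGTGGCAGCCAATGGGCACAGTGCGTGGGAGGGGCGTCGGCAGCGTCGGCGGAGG

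Neither window held TTCNNNGAA, searched on both strands, where it reads the same. Over all 32851 RefSeq promoters of 300 bases, 250 before and 50 after the start, 2726 (8.3%) held it, and the promoters of Ccdc157, Sf3a1, Castor1 and Gm11958 did not. A missing match says only that these letters are not in the window. The Lif stretch had 63.6% and the Tbc1d10a stretch 68.4% of its bases as G or C.

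Without IL3, STAT5A was called in the pooled list at the Tbc1d10a start (score 14.7, rank 3213 of 5051) and inside Castor1, 179 bp from its upper bound. The Castor1 region scored 17.0 in replicate 2 (rank 4127 of 4513) and 14.7 in the pooled list. Both ranked low in their lists and neither was called in any STAT5A list with IL3. None of the 14 pooled STAT5A regions with IL3 overlapped a pooled STAT5A region without IL3, while 10.9% did over the genome.

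The highest STAT5A score of the locus belonged to neither cytokine gene's flank. It lay at +102.7 kb, 6306 bp below Hormad2, at chr11:4339408-4339582. It scored 820.4 in replicate 1, rank 5 of 13574, and 508.4 in the pooled list, rank 9 of 15546. In replicate 2 it scored 85.0, rank 372 of 6288. The replicates thus differed in where they placed it, with the lower bound of Osm ranking above it in replicate 2 and below it in replicate 1. Which gene this site belongs to was not tested.

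**Figure D4:**
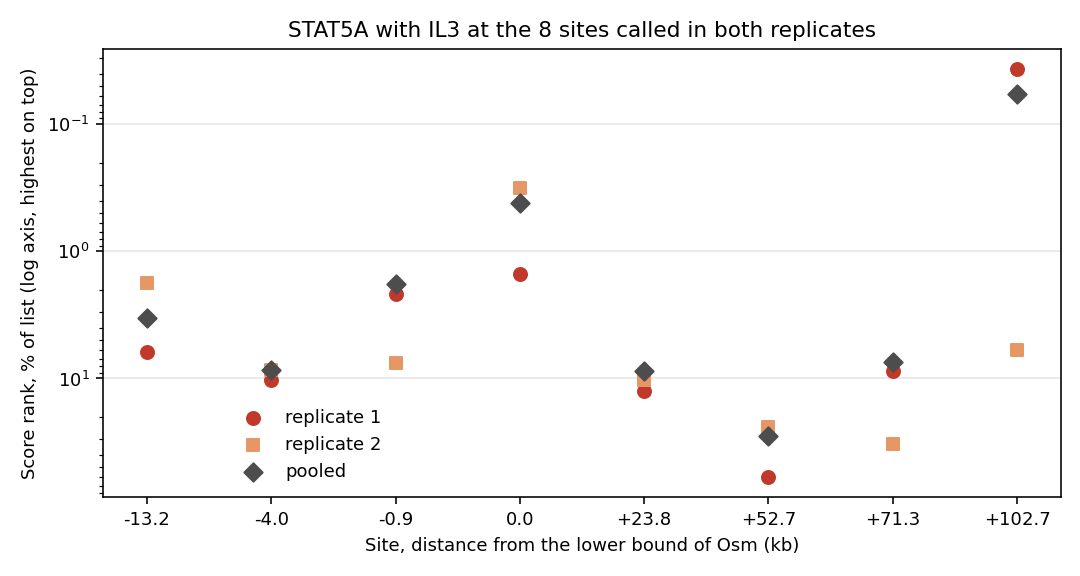
Score rank in percent of its list (vertical log axis, highest ranks on top) of the 8 STAT5A sites called in both replicates with IL3, by distance from the lower bound of Osm in kb; circles are replicate 1, squares replicate 2 and diamonds the pooled list. The sites at the Osm bound and at +102.7 kb rank highest in the pooled list, and the ranks at +102.7 kb run from 0.0368% to 5.92%.

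Of the remaining sites called in both replicates with IL3, that at +52.7 kb inside Gm11958 was weak, with 29.8 (rank 8053), 45.0 (rank 1509) and 36.3 (rank 4421). That at +71.3 kb, at chr11:4307974-4308148, scored 167.8 (rank 1194) in replicate 1 and 115.4 (rank 1144) in the pooled list. In replicate 2 it scored 40.0 (rank 2042). Regions at +57.8 kb (26.1), +61.2 kb (33.6) and +83.0 kb (33.6) were called in replicate 1 and the pooled list only.

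LSD1 occupied the locus in both conditions. The locus had 1 and 14 of its regions in starved cells, and 11 and 12 after IL3, so the groups overlapped. The 1 belonged to the shortest LSD1 list, of 1007 regions. The means were 7.5 ± 9.19 and 11.5 ± 0.71 (SD, n = 2 each), a difference of 4 regions (exact permutation test, two-sided, p = 1). Without LSD1 replicate 1 of the group without IL3, the difference turned to −2.5, and without replicate 2 it was 10.5. Near Osm the counts within 10 kb were 0 and 2 without and 1 and 2 with IL3. Near Lif they were 0 and 2 against 2 and 2. Neither gene was among the 503 (2.3%) whose LSD1 counts in both libraries with IL3 exceeded both without.

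The highest-ranking LSD1 region of each replicate list in the locus lay in Gm11958. The region at +57.8 kb scored 109.7 in replicate 2 without IL3 (rank 304 of 15786) and was not called in replicate 1. With IL3 it scored 52.0 (rank 231 of 6479) and 133.2 (rank 59 of 11570). It was within the highest 3.57% of each replicate list that held it, and STAT5A was called there weakly, in replicate 1 and the pooled list with IL3. The neighbouring region at +55.6 kb was the 1 site of the locus called in all 4 LSD1 replicates, with 75.6 and 67.0 without and 37.1 and 34.6 with IL3, and STAT5A and HDAC3 were called there in no list. A region at +60.0 kb was in replicate 2 without (73.1, rank 871) and in both with IL3 (44.6, rank 350, and 42.6, rank 1403). Farther up, the region at +99.1 kb scored 67.0 in replicate 2 without (rank 1064) and 19.8 in replicate 1 with IL3 (rank 3215), and that at +72.0 kb was in replicate 2 without and in both with IL3 (36.6, then 24.8 and 21.3). Sites at +14.8, +25.3, +73.0 and +83.0 kb were called in replicate 2 without IL3, those at +24.5 and +61.2 kb in the pooled list without IL3 alone, and that at +40.6 kb in replicate 1 with IL3. None of these 7 was called for LSD1 in both conditions.

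Around the lower bound of Osm the LSD1 calls differed in position between conditions. Without IL3, regions lay at −0.5 kb (27.4 in replicate 2, rank 7366) and, in the pooled list alone, at +0.7 kb inside Osm (25.4, rank 7597). With IL3, the 1 call lay on the bound itself in replicate 2 (34.6, rank 2369), 19 bp from the centre of the STAT5A region, and was not in the pooled list. None was called in both replicates of a condition, so no difference between conditions can be read from them. Of 22 merged LSD1 regions, 1 was called in both libraries with IL3 and in neither without, against 757 of 22555 (3.36%) over the genome. It lay inside Lif at +30.0 kb and scored 19.8 (rank 3215) and 37.3 (rank 1944), but the pooled list without IL3 had a region there too (22.8, rank 9235). With replicate 2 of the starved cells left out, the count of 1 became 6. With replicate 1 or 2 of the cells given IL3 left out, it became 6 or 4.

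At gene starts, LSD1 was called at the facing ends of Ccdc157 and Sf3a1, whose RefSeq promoters overlap, with 33.5 in replicate 2 without (rank 4929) and 40.0 in replicate 2 with IL3 (rank 1656). At the Tbc1d10a start it was called with IL3 in replicate 2 (18.7, rank 9243) and the pooled list. The Castor1 promoter was touched by no region of any list. Inside that gene, nearer its upper bound than its start, LSD1 was called at −16.1 kb in replicate 2 without IL3 (27.4, rank 7366). With IL3 it was called there in the pooled list (18.0, rank 5715). At −15.1 kb it was called in replicate 2 with IL3 (34.6, rank 2369) and the pooled list. Of the replicate lists, those of replicate 2 held these calls, and none was made in a replicate 1 list.

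HDAC3 was called at few positions of the locus. The locus had 2 and 1 of its regions in starved cells, and 3 and 0 after IL3. The means were 1.5 ± 0.71 and 1.5 ± 2.12 (SD, n = 2 each), a difference of 0 (exact permutation test, two-sided, p = 1). The 0 is that of the library dominated by 1 region, and without it the difference was 1.5 regions. Within 10 kb of Osm there were 1 and 1 without and 2 and 0 with IL3, and near Lif none in any of the 4 libraries. Over the genome no gene (0.0%) had more HDAC3 regions in both libraries with IL3 than in either without, so Osm and Lif could not stand out by that count.

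The site at −4.0 kb was the 1 HDAC3 site of the locus called in both replicates of a condition. Without IL3 it scored 67.7 in replicate 1 (rank 108 of 1632), 22.0 in replicate 2 (rank 430 of 535) and 44.5 in the pooled list (rank 78 of 3350). With IL3 it scored 21.9 in replicate 1 (rank 233 of 683) and 17.6 in the pooled list (rank 346 of 1208). With IL3, HDAC3 was also called at the lower bound of Osm, with 27.4 in replicate 1 (rank 104) and 26.3 in the pooled list (rank 76). It was called at −0.9 kb in the pooled list alone (22.8, rank 130) and at +102.7 kb in replicate 1 (19.2, rank 384) and the pooled list (17.6, rank 346). HDAC3 replicate 2 with IL3 called none of them.

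**Figure D5:**
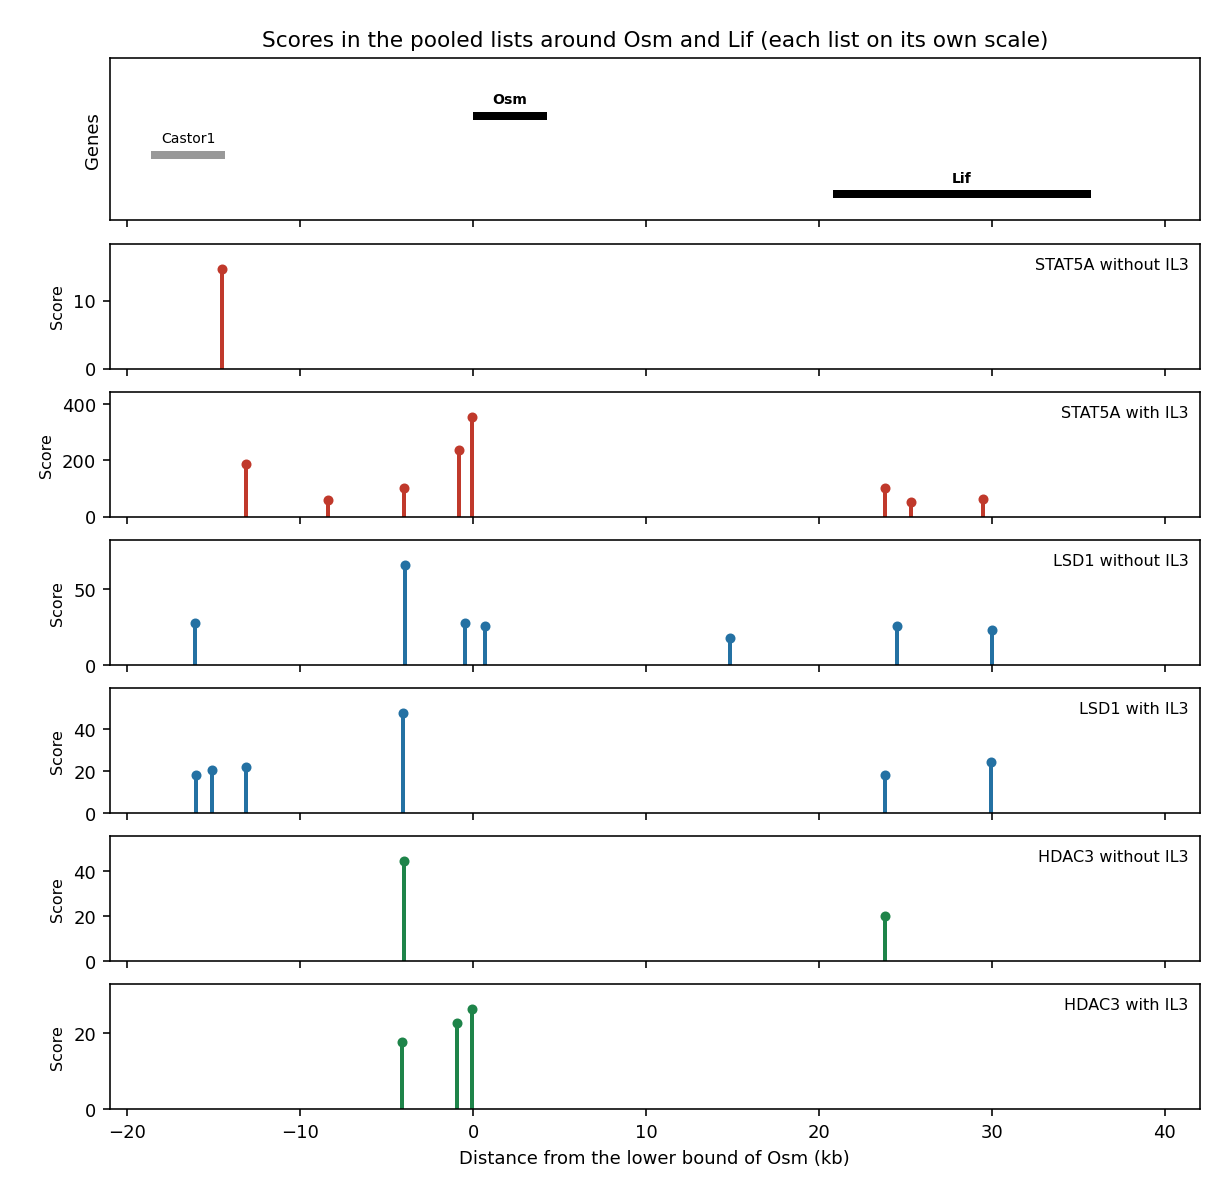
Scores of called regions in the 6 pooled lists (vertical axes, each list on its own scale) against the distance from the lower bound of Osm in kb, with genes as bars on top. STAT5A regions appear with IL3 at −4.0 kb, on both sides of it and on the Osm bound. LSD1 stands at −4.0 kb in both conditions, and HDAC3 is called at −4.0 kb in both and at the Osm bound with IL3.

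The 3 proteins met at a small part of these sites. Of the 14 pooled STAT5A regions with IL3, 6 overlapped a pooled LSD1 region with IL3, against 33.4% over the genome. The 6 are also 6 of the 15 pooled LSD1 regions of the locus with IL3, and over the genome 30.4% of those LSD1 regions overlapped STAT5A. With HDAC3 with IL3, 4 of the 14 overlapped, against 4.56% over the genome, and these 4 were all the pooled HDAC3 regions of the locus with IL3, where 58.7% of such HDAC3 regions over the genome overlapped STAT5A. The 4 STAT5A regions were those at −4.0 kb, −0.9 kb, the Osm bound and +102.7 kb. Without HDAC3 replicate 1 with IL3 the 4 became 0, so this overlap rests on that library. Without IL3, all 3 pooled HDAC3 regions, at −4.0, +23.8 and +61.2 kb, lay at positions where STAT5A was called with IL3 and in no list without. Over the genome 40.4% of pooled HDAC3 regions without IL3 overlapped pooled STAT5A with IL3.

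STAT5A regions of high rank carried HDAC3 more often over the whole genome, so the comparison was also made among them. The highest 10% of the pooled STAT5A list with IL3, 1587 regions with ties, held 7 of the locus. Of these, 4 overlapped HDAC3 with IL3, where 15.8% of the 1587 did, and 5 overlapped LSD1 with IL3, where 51.9% did. The 8 sites called in both STAT5A libraries with IL3 and neither without gave 5 with pooled LSD1 with IL3, against 57.8% of the 1811 over the genome, and 4 with HDAC3, against 13.5%. For LSD1 this is near the background. Without IL3, 2 of these 8 sites already overlapped LSD1 and 2 HDAC3, against 40.2% and 13.9%.

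Only the sites at −4.0 kb and +102.7 kb held STAT5A, LSD1 and HDAC3 with IL3 in the pooled lists, and no site held all 3 without. Without IL3 the locus held only 2 pooled STAT5A and 3 pooled HDAC3 regions, and shares over the genome were not computed. No difference between conditions can therefore be read from this. At −4.0 kb, LSD1 was in place without IL3 (76.2 in replicate 2, rank 797) and with it (39.6, rank 486, and 61.3, rank 558). Its pooled centre lay 81 bp above the pooled STAT5A centre without and 69 bp below it with IL3. That of HDAC3 lay 7 bp above without and 80 bp below with IL3. In single libraries with IL3, LSD1 lay 65 and 123 bp below and HDAC3 (replicate 1) 30 bp below. The STAT5A centres of replicates 1 and 2 with IL3 themselves lay 4033 and 3881 bp from the lower bound of Osm. A shift between conditions was not tested. At +102.7 kb, LSD1 scored 45.7 in replicate 2 without IL3 (rank 2560 of 15786) and 44.6 (rank 350 of 6479) and 66.6 (rank 451 of 11570) with IL3. There the pooled centres with IL3 lay 1 bp (LSD1) and 19 bp (HDAC3) from that of STAT5A. Ranks in lists of different lengths cannot show whether binding changed between conditions.

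At the other STAT5A sites, LSD1 calls differed in condition. The pooled STAT5A regions with IL3 overlapped pooled LSD1 at 5 of 14 without and 6 of 14 with IL3. Over the genome 29.0% and 33.4% of the pooled STAT5A regions with IL3 did, so both counts are near the background. Of the 8 sites called in both STAT5A libraries with IL3 and neither without, pooled LSD1 overlapped 2 without and 5 with IL3. Over the genome those shares were 40.2% and 57.8%, and a difference between conditions at the locus was not tested. At −13.2 kb LSD1 was called with IL3 in replicate 1 (27.2, rank 1296) and the pooled list, and at +71.3 kb likewise (32.2, rank 858), in no list without IL3 at either. At +23.8 kb inside Lif, LSD1 was called in the pooled list with IL3 (18.0, rank 5715) and HDAC3 in the pooled list without IL3 (20.0, rank 1118), each in no replicate. None of these was called in both replicates of a condition, so a difference between conditions was not shown for them. None of the 29 merged pooled sites of the locus was in all 6 pooled lists, a class of 207 sites over the genome that are called with every antibody. The share of that class among all merged pooled sites was not computed. The locus held only 2 pooled STAT5A regions without IL3 and 4 pooled HDAC3 regions with IL3, so such a site had little room to occur. The input library was not used here, and a signal shared by all antibodies was not tested against it.

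Among the interleukin 6 family, Osm and Lif were the 2 of 9 ligand genes with STAT5A within 10 kb in both libraries with IL3, a class that held 17.6% of all genes. Il6 had 1 and 0, Il11 0 and 1, Clcf1 1 and 0 and Il27 1 and 0, and Cntf, Ctf1 and Ebi3 had 0 and 0. Among 7 receptor genes, Il6ra (3 and 1 against 0 and 0) had higher counts in both libraries with IL3 than in either without. Osmr and Il6st, which encode receptor chains for Osm, had no STAT5A, LSD1 or HDAC3 region within 10 kb in any list, and Lifr had 1 and 0 STAT5A regions with IL3. Among 9 signalling and feedback genes, 4 were in that class, namely Jak2 (3 and 2 against 1 and 1), Socs1 (3 and 2 against 0 and 0), Socs3 (3 and 3 against 0 and 1) and Cish. That makes 7 of 25 genes of the whole list and 5 of 23 without Osm and Lif, beside 9.13% of all genes. Of those 5, 4 are the signalling and feedback genes and 1 is the receptor gene Il6ra, and no ligand gene is among them. Region lists cannot check the cell type by expression. Of 8 pro-B marker genes, Cd79a alone had STAT5A in both libraries with IL3, as did 0 of 4 T cell genes and, of 4 liver genes, Alb.

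The genes whose counts within 10 kb over the 12 replicate lists were most like those of Osm, by the sum of absolute differences, were Glb1l, Ppfia1 and Tax1bp1 (a sum of 4 each) and Il4ra and Kazn (5 each). All 5 had 4 and 3 STAT5A regions with IL3. For Lif they were Nek7 (a sum of 1) and Def6, Fam13b, Glt8d1 and Hdac4 (2 each). Ties were ordered by symbol, and 10 genes were within a sum of 2 of Lif.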

How the data were processed

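For 12 ChIP-seq libraries (2 biological replicates in each of 6 groups) and for each pooled group, the authors deposited the called regions. Trimmomatic 0.30, Bowtie2 2.1.0, Picard 1.92, HOMER 4.8 and mm10 are named in the submitters' processing notes. Not given in the sources used here are the caller's settings, control and threshold and what the deposited score measures. A stricter threshold would shorten every list, which equal list lengths and the upper 50% by score stand in for. The score was used to rank regions within a list (ties share the best rank). The input library was not used here.

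Python 3.11.15 with numpy 2.4.6, pandas 2.3.3, scipy 1.17.1 and matplotlib 3.10.9 was used. An overlap of 1 bp counted as shared, and gene windows are RefSeq GRCm38.p6 bounds plus 10 or 100 kb on each side, for 21887 protein-coding genes. Counts per library were tested by exact permutation, two-sided. Counting, merging, overlap and the step of the score were tested on simulated data, and 5 of 5 checks passed. Ranking was not among the checks. Named genes are all protein-coding genes of the locus, the interleukin 6 family list, Cish, Pim1 and the 5 genes outside the locus most like Osm and most like Lif. Socs1 as a dense locus and single sites were chosen after their values were seen. An item of the family list is not reported here and not counted. The members, gene lists and tests were chosen with earlier results of these data known. Alternatives were each replicate left out, list length, window, merging and overlap rules. Depth is unknown, and the labels give no batch.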

Additional observations from a re-analysis of the deposited data

How the results depend on the processing

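The STAT5A difference of 11.5 regions stayed above 0 under all settings run, from 9.5 to 13.5 with 1 library left out and 2.5 with lists of equal length. The LSD1 difference of 4 was between −2.5 (without the first starved library) and 10.5 with 1 library left out. The HDAC3 difference of 0 was between −1.5 and 1.5 with 1 library left out, 0.5 with lists of equal length, 0.5 with the upper 50% of each list by score and −0.5 with a window of 50 kb. With the replicate block, the differences stayed 11.5, 4 and 0, with two-sided exact sign-flip p of 0.5, 1 and 1, where 0.5 is the smallest p for 2 pairs. Nothing in the labels says that equal numbers pair the samples.

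The 8 STAT5A regions called in both libraries with IL3 and in neither without were between 8 and 14 with 1 library left out and 1 with lists of equal length. The 1 LSD1 region of that class was between 1 and 6, and 0 in the upper 50% of each list. The 4 STAT5A regions with HDAC3 were between 0 and 4 with 1 library left out, and the 6 with LSD1 between 4 and 8 over all settings. The 1998 genes were between 2036 and 5677 with 1 library left out, 83 with lists of equal length, 1195 with the upper 50% and 5493 with a window of 100 kb. Of 72 alternative values, 51 kept their size or direction, 20 moved and 1 reversed. The STAT5A difference of 2.5 with lists of equal length is among those counted as kept, by its direction. The 1 that reversed was the LSD1 difference without the first starved library. Depth limits each absence from a list, since the lowest scores are 4 to 6 steps.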
